A study of Rattus norvegicus with 24 samples.

Results

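The 12 liver libraries described here come from rats 37, 39, 41, 43, 46 and 48, labelled Air + Ozone, and rats 87, 88, 91, 95, 96 and 97, labelled Ozone + Ozone. They are 12 of the 24 libraries of the study and were chosen by rat number and treatment label. In Air + Ozone the dam breathed filtered air, and in Ozone + Ozone she breathed 0.8 ppm ozone, for 4 hours on each of gestation days 5 and 6, with 12 dams per exposure. Both groups share the second exposure, because all 12 offspring breathed ozone once a week after weaning. The concentration was 0.4 ppm for that of postnatal week 5 and 0.8 ppm for those of weeks 6 and 7. The comparison therefore asks whether maternal ozone altered hepatic expression in young rats that had themselves been exposed to ozone. It holds no offspring kept in clean air, so a difference between the groups cannot be assigned to the prenatal exposure alone or to its combination with the later one. All 12 rats are labelled male, under a tag named for genotype, and the livers were collected at about postnatal day 48. The labels name no strain, dam or litter for any rat. Littermates may therefore be among the 6 rats of a group, and the p-values measure only the spread between these 12 livers.

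Ozone is a reactive gas that is consumed largely at the lining of the airways, so the liver responds to it mainly through hormones, inflammatory mediators and metabolites in the blood. In rodents acute ozone is known to activate the adrenal stress hormone response and to raise blood glucose and lipids, and the liver handles much of both. Exposure around the time the embryo implants is studied because the placenta is then being established, and because early insults can alter the later metabolism of the offspring.

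The deposited tables identify genes by Ensembl rat ID without symbols, and 0 of the 18056 IDs could be paired with a name here. No gene, pathway or cell type can therefore be named, and the labelled tissue and sex could not be checked against marker genes. In place of pathways, the genes are described below by direction, level, size of change and pattern across the 12 rats, and 4 of them by ID. In whole liver, fewer cells of a type and less RNA per cell cannot be told apart.

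Library totals ran from 8462290 counts in rat 87 to 14564662 counts in rat 41, and the groups overlapped in depth. An ID at 3 counts in such a library corresponds to 0.206 to 0.355 CPM (counts scaled to a common library size), and lower levels cannot be told from 0. The share of counts on the most abundant ID was 9.59% to 11% in Air + Ozone and 7.52% to 10.5% in Ozone + Ozone. Its exact two-sided permutation p was 0.0238, which became 0.0974 after adjustment over 5 library measures. Library names come in 2 forms, set 1 (rats 37, 39, 48, 95 and 96) and set 2 (the other rats). The set was a term in the fits described here, apart from those of a single set and the alternatives run without the term. Principal components, and the counts of genes whose groups do not overlap, use CPM not adjusted for set. Rat numbers and library index numbers run in separate ranges in the 2 groups, so an effect of their order and an effect of the dam's exposure cannot be told apart.

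Rat 88 stood apart from the other Ozone + Ozone rats. Its log2 CPM differed from the mean of the other 5 by a median of 0.33 over 9087 genes with a mean count of at least 50, whereas the same distance lay between 0.13 and 0.22 for each of the other 11 rats. In rat 88, 427 of these genes were at least 2-fold away from the mean of the other 5, 166 of them higher and 261 lower. In the other rats that number was 71 to 255. Results that rest on this rat are given with and without it.

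On principal component 1, which held 40.8% of the variance in log2 CPM of the 9087 genes, Air + Ozone rats lay between -31.6 and -7.08 and Ozone + Ozone rats between -10.9 and 34.7. The means were -17.7 ± 10.2 and 17.7 ± 16.8 (SD, n = 6 each; exact two-sided permutation p = 0.00649, adjusted 0.0195 over 3 components). Only rat 88, at -10.9, kept the groups from separating, and with it left out the ranges were -33 to -8.22 and 9.37 to 33.5. Rat 88 was left out here after its score had been seen, so these ranges are a description with no test. The group difference on the component had the same sign in both library sets, 44.8 in set 1 and 33.6 in set 2. Components 2 and 3 did not separate the groups (exact permutation p = 0.377 and 0.433), and rat 88 had by far the highest score on component 2, at 31.5 against at most 2.78 in the other Ozone + Ozone rats.

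Each rat was also placed on the maternal difference as fitted from the other 11 rats, on a scale where -0.5 is the mean of Air + Ozone and 0.5 the mean of Ozone + Ozone. Among the Air + Ozone rats, 5 lay between -0.60 and -0.33, and rat 41 lay at 0.02. Among the Ozone + Ozone rats, 5 lay between 0.33 and 0.80, and rat 88 lay at -0.14. Thus 10 of the 12 livers fell on the side of their own group when they had no part in setting the scale. Rat 97 was the most extreme, at 0.80. The position is fitted across many genes at once and carries no test.

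**Figure D1:**
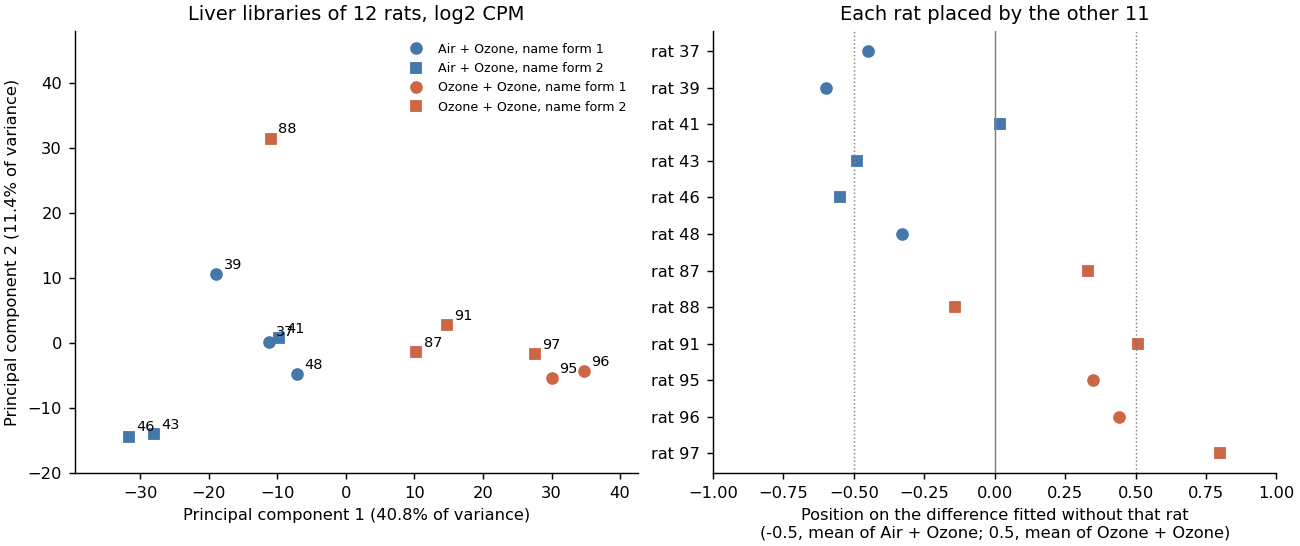
Left, the scores of the 12 livers on principal components 1 and 2 (arbitrary units of log2 CPM), with blue for Air + Ozone, orange for Ozone + Ozone, circles for library-name form 1 (set 1) and squares for form 2 (set 2). Right, the position of each rat on the maternal difference fitted without it; 10 of the 12 fall on their own side of 0, rat 41 lies at 0.02 and rat 88 at -0.14.

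Among 12541 genes tested, 2670 (21.3%) passed edgeR's quasi-likelihood test at a Benjamini-Hochberg adjusted p under 0.05, and these are called below. Expression was higher with maternal ozone in 1295 genes (10.3%) and lower in 1375 (11%). The changes were mostly modest. The median log2 fold change was 0.55 in the risen genes, with 10th and 90th percentiles of 0.35 and 0.94, and -0.61 in the fallen genes, with percentiles of -1.07 and -0.39. A fitted change of more than 2-fold was found in 111 risen and 172 fallen genes, together 283, and in 436 called genes when rat 88 was left out. Beyond 4-fold the balance was the other way, with 31 rises and 8 falls.

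By fitted size, the tail of the rises was thus longer and that of the falls broader, and few genes of either kind passed a test of size. The long tail of rises lay largely in genes of low count. Among called genes with a mean count of at least 50 and counts not identical to another ID's, the 12th largest rise was 1.77 on the log2 scale, under 4-fold. Fewer than 12 of the 31 rises beyond 4-fold were therefore such genes. A test of whether the change itself exceeded 1.5-fold was passed by 41 genes (0.327%), 19 of them risen and 22 fallen. Without rat 88 the same test was passed by 149 genes (1.18%), 45 risen and 104 fallen. The share of rises among the genes that passed was 46.3% with rat 88 and 30.2% without it. This rat was singled out because it lay near the other group, so the larger numbers without it, here and above, are a description. Of the 9871 genes that were not called, 8273 (83.8%) had a 95% interval that lay wholly within a 2-fold change, and 5075 (51.4%) had one within 1.5-fold. For the remaining uncalled genes the interval reached past 2-fold, so a larger change is neither shown nor excluded.

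Complete separation of the 6 rats from the other 6 was less common than a call. The CPM of the groups did not overlap in 346 genes that were higher with maternal ozone (2.76% of those tested) and 297 that were lower (2.37%). Of these 643 genes, 613 were called. Without rat 88, the numbers were 927 (7.31%) and 974 (7.68%). A group of 5 rats separates more easily than a group of 6, and this rat was chosen because it lay near the other group. The larger numbers are therefore a description and test nothing. Among all called genes, rat 88 was the Ozone + Ozone rat closest to the Air + Ozone group in 56.1% of the rises and 68.7% of the falls. On the side of Air + Ozone, rats 41 and 48 were the nearest to the other group in 27.3% and 25.3% of the rises, and rats 43 and 46 in only 4.4% and 3.24%. No ID had at least 10 counts in all 6 rats of a group and fewer than 3 in all 6 of the other group, whereas 10835 IDs had at least 10 counts in all 12 rats.

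With rat 88 left out, 3740 of 12675 genes were called (29.5%), 1829 higher and 1911 lower. They included 2629 of the 2670 genes called with all 12 rats, all with the same sign. Because rat 88 lay near the other group, more calls without it are a description and no added support. The spread between rats also differed with rat 88. The median SD of log2 CPM within a group was 0.206 in Air + Ozone and 0.253 in Ozone + Ozone, and 0.207 in Ozone + Ozone without rat 88.

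Leaving out any other single rat gave 1684 to 2963 called genes. The 2 lowest counts came without rat 46 (1684) and rat 43 (1758), the Air + Ozone rats at the far negative end of principal component 1. Without rat 46, 752 genes were called higher and 932 lower, and without rat 43, 833 higher and 925 lower. Without rat 96, 884 genes were called lower. Leaving out rat 41 raised the count to 2963. A core of 1328 genes (49.7% of those called), 622 risen and 706 fallen, was called in every 1 of these 12 fits. The median size of change in this core was 0.68 on the log2 scale, against 0.48 in the other called genes. These fits share all but 1 rat with the main fit, and larger changes are called more readily. Neither the core nor its size is therefore independent of the calls. At the other end, 712 called genes passed in 6 or fewer of the 12 fits.

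**Figure D2:**
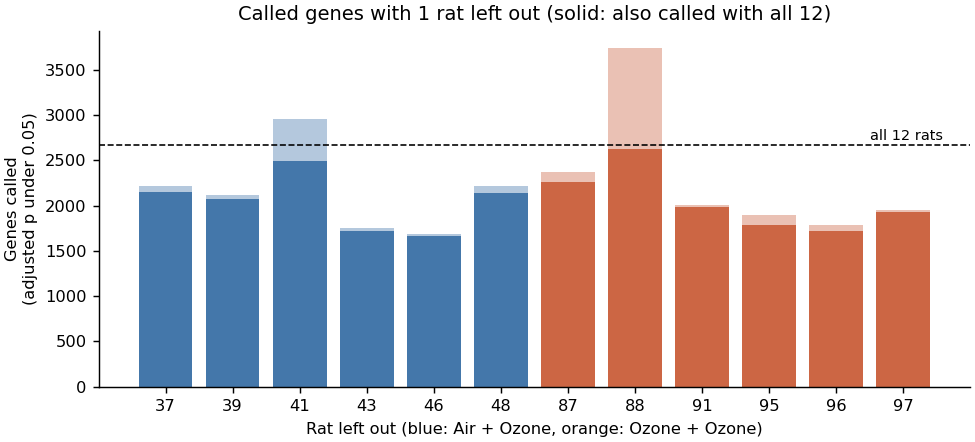
Number of genes called (y axis, adjusted p under 0.05) when the rat on the x axis is left out, blue for Air + Ozone and orange for Ozone + Ozone. The solid part of each bar counts genes also called with all 12 rats and the pale part counts genes called only without that rat; the dashed line marks the 2670 genes of all 12 rats, and the bars run from 1684 without rat 46 to 3740 without rat 88.

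The number and direction of calls varied with the level of the gene. The tested genes were divided by mean CPM into 5 tiers of 2508 or 2509 genes. CPM is not divided by gene length, so long genes lie in higher tiers at the same number of transcripts. From the lowest tier to the highest, 7.41%, 17.2%, 23.8%, 29.9% and 28.1% of the genes were called. The tier between 2.91 and 7.93 CPM had 175 risen and 257 fallen genes, so that 40.5% of its calls were rises. In the top tier, above 44 CPM, 400 genes rose and 304 fell, and rises made up 56.8%. The split was near even in the lowest tier (91 risen, 95 fallen) and from 17.7 to 44 CPM (373 risen, 377 fallen). Whether these shares differ between tiers was not tested.

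Lower tiers were also measured less precisely. The median standard error of the log2 fold change decreased from 0.30 in the lowest tier to 0.12 in the highest. The median size of the called changes decreased alongside, from 1.07 to 0.50. A called gene of low abundance therefore had to change by more, and sizes cannot be compared between tiers on the called genes alone.

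**Figure D3:**
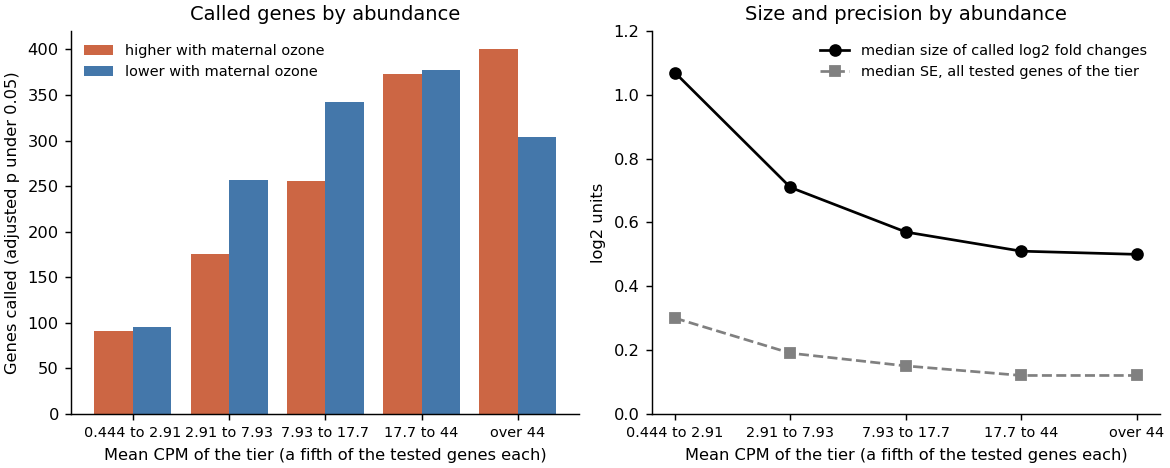
Left, genes called higher (orange) and lower (blue) with maternal ozone in 5 tiers of mean CPM. Falls outnumber rises in the tiers from 2.91 to 17.7 CPM, rises outnumber falls above 44 CPM, and the other tiers are near even. Right, the median absolute log2 fold change of the called genes (black) and the median standard error of all tested genes (grey) in the same tiers, which decrease together.

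The most abundant IDs were called about as often as other genes. Of the 10 most abundant IDs, 1 was called, a rise, and fitted log2 fold changes ran from -0.46 to 0.37. Of the 100 most abundant, 11 rose and 10 fell (21%), with changes between -1.10 and 1.07. Among the 1000 most abundant, which held 76% to 80.3% of the counts of a library, 133 rose and 108 fell (24.1%). These percentages lie near the 21.3% of all tested genes.

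A fractional count arises where reads are divided between genes. At least 1 of the 12 libraries had a fractional count for 34.4% of risen genes, 43.2% of fallen genes and 32.3% of all tested genes. Fractional counts in all 12 libraries were found for 11.4% of risen genes, 25.3% of fallen genes and 14.8% of all tested genes. The difference between risen and fallen genes, and the part of read sharing in it, was not tested. Counts identical to those of another ID in all 12 libraries were rare among called genes, with 6 risen and 12 fallen.

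The library sets allow the maternal difference to be measured in separate livers. Set 1, with 3 Air + Ozone and 2 Ozone + Ozone rats, called 861 of 12436 genes (6.92%). Set 2, with 3 and 4 rats, called 121 of 12492 (0.969%). Set 2 contains rat 88, and without this rat it called 1032 of 12429 genes (8.3%), 437 higher and 595 lower. Rat 88 was left out because it lay near the other group, so this larger count is a description and tests nothing. Over 12225 genes tested in both sets, 75% had the same sign, and Pearson's r of the log2 fold changes was 0.58. This r runs across genes, which are not independent replicates. Set 1 called 859 genes that were tested in both, and 97.4% of them changed in the same direction in set 2. Their median size was 0.92 in set 1, where they were chosen, and 0.56 in set 2, which had no part in the choice. For the 120 genes from set 2 this share was 90%, and all 53 genes called in both changed in the same direction. For the set itself edgeR called 0 of 12541 genes (0%), although 1128 genes had an unadjusted p under 0.05. DESeq2 called 11 genes for the set and limma-voom 0.

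The 12 largest fitted rises and 12 largest falls were taken among called genes with a mean count of at least 50 and counts not identical to those of another ID. The rises ran from 1.77 to 5.49 on the log2 scale (median 2.79) in genes of 4.66 to 198 CPM. All 12 had the same sign in both library sets, and 11 were called in every fit that left out 1 rat. The threshold test of a change beyond 1.5-fold was passed by 5 of them. The falls ran from -3.98 to -1.60 (median -1.84) in genes of 4.49 to 33.7 CPM. All 12 again had the same sign in both sets, 8 were called in every fit with a rat left out, and 7 passed the threshold test. Only 2 of the 12 rises but 11 of the 12 falls had fractional counts in at least 1 library. Groups did not overlap for 6 of the rises and 6 of the falls. Among all called genes, 100% of the 2653 tested in both sets had the same sign in both. The same rats enter the call and the sets, so a shared sign is no particular trait of these genes. Of the 2670 called genes, 49.7% were called in every fit with a rat left out, and 613 had groups that did not overlap. The 12 rises and 12 falls were chosen by their fitted size, so their counts describe them and test nothing.

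Rat 48 stood out among the Air + Ozone rats in the rises. It was the highest rat of its group in 11 of the 12 genes, in most of them well above the other 5. For the gene of rank 4 by size, log2 CPM relative to the Air + Ozone mean was 2.556 in rat 48 and at most 0.369 in the other Air + Ozone rats, while the Ozone + Ozone rats lay between 2.520 and 3.806. In the gene of rank 10, rat 48 at 3.169 was above 5 of the 6 Ozone + Ozone rats. One Air + Ozone liver thus had levels of several of these genes close to those seen with maternal ozone, although over all 9087 genes rat 48 was placed at -0.33, with its own group. At the other end, rat 43 was lowest in 7 and rat 46 lowest in 4 of the 12 rises.

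In the falls, rats 43 and 46 lay at the other end of their group. Rat 46 was the highest Air + Ozone rat in 9 and rat 43 in 3 of the 12 fallen genes. Among Ozone + Ozone rats, 87 and 88 were each highest in 5 of them, and rat 95 was lowest in 5. In the gene of rank 8, rat 88 lay at -0.002 relative to the Air + Ozone mean and the other Ozone + Ozone rats between -2.826 and -1.582. Rats 43 and 46 thus held the low end of the rises and the high end of the falls.

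**Figure D4:**
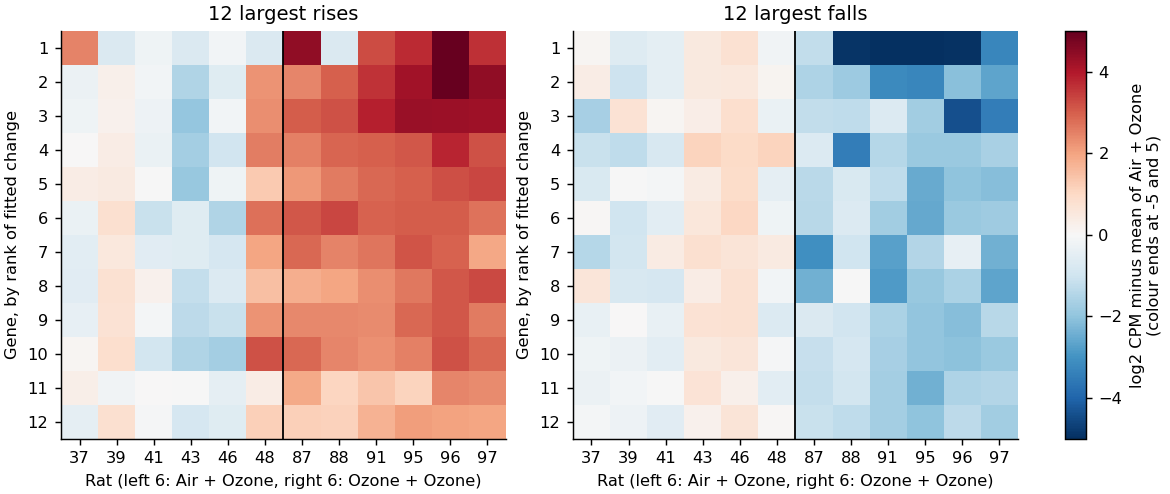
Log2 CPM of each rat (columns) minus the Air + Ozone mean for the 12 largest rises (left) and 12 largest falls (right), ranked by fitted change; colour is capped at -5 and 5, and the black line divides Air + Ozone from Ozone + Ozone. Rat 48 is the reddest Air + Ozone rat in 11 of the 12 rises, and rat 46 or rat 43 is the reddest in each of the 12 falls.

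Of the rises given by ID, the clearer was ENSRNOG00000055561. Its level in Air + Ozone was 5.12 CPM in rat 37, 7.64 in rat 39, 5.81 in rat 41, 2.15 in rat 43, 4.17 in rat 46 and 30.7 in rat 48. In Ozone + Ozone it was 35 CPM in rat 87, 51.9 in rat 88, 79 in rat 91, 120 in rat 95, 236 in rat 96 and 142 in rat 97. All 6 Ozone + Ozone rats were above all 6 of the others, although rats 48 and 87 came close. The means were 9.26 ± 10.7 and 111 ± 73.3 CPM (SD, n = 6 each), a log2 fold change of 3.96 ± 0.57 SE with a 95% interval from 2.69 to 5.23 (edgeR adjusted p = 0.00219). A change beyond 1.5-fold was also passed (adjusted p = 0.0294, edgeR threshold test). None of its counts was fractional. Within set 1 alone, with 5 rats, its change was 3.64 and the adjusted p 0.0979 (edgeR).

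Among called IDs with a mean count of at least 50 and counts not shared with another ID, ENSRNOG00000049893 had the largest fitted rise. It rested on few counts and met that floor only through Ozone + Ozone rats, chiefly rat 96. Its estimated count was 418 in rat 96 and at most 13.7 in Air + Ozone. In Air + Ozone it was at 1.43 CPM in rat 37 and at 0.0868 CPM or less in the other 5 rats. In Ozone + Ozone it was at 6.05 CPM in rat 87, 0 in rat 88, 2.61 in rat 91, 3.68 in rat 95, 38.6 in rat 96 and 3.43 in rat 97. The groups overlapped because rat 88 was at 0, and 6 of the 12 libraries had fewer than 3 counts. The log2 fold change was 5.49 ± 1.15 SE, with a 95% interval from 2.92 to 8.05 (edgeR adjusted p = 0.00992). It was 4.073 without rat 96 and 7.592 without rat 37. The call did not hold in limma-voom (adjusted p = 0.103) or in either set alone (edgeR adjusted p = 0.143 and 0.113). The threshold test of 1.5-fold was not passed (edgeR adjusted p = 0.114), and the counts were fractional in all 12 libraries.

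Among the falls, ENSRNOG00000030807 was at 32.2 CPM in rat 37, 12 in rat 39, 17.4 in rat 41, 34.8 in rat 43, 35.1 in rat 46 and 27.1 in rat 48. With maternal ozone it was at 8.44 CPM in rat 87, 6.91 in rat 88, 2.54 in rat 91, 2.42 in rat 95, 5.72 in rat 96 and 3.82 in rat 97. The lowest Air + Ozone rat, 39, was still above the highest Ozone + Ozone rat, 87. The means were 26.4 ± 9.68 and 4.97 ± 2.45 CPM (SD, n = 6 each), and the log2 fold change was -2.49 ± 0.36 SE with a 95% interval from -3.27 to -1.70 (edgeR adjusted p = 0.00157). It also passed the threshold of 1.5-fold (edgeR adjusted p = 0.0294). Its counts were fractional in 11 of 12 libraries, and in set 1 alone the change was -2.53 with an edgeR adjusted p of 0.0584.

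ENSRNOG00000046349 showed the largest fitted fall among called IDs that met the same floor of 50 on the mean count. Its Air + Ozone levels were 8.71 CPM in rat 37, 5.12 in rat 39, 5.81 in rat 41, 11.6 in rat 43, 14.1 in rat 46 and 7.16 in rat 48. In Ozone + Ozone it was at 3.42 CPM in rat 87, 0.702 in rat 97 and at most 0.1 in the other 4, all of which had fewer than 3 counts. The groups did not overlap, but the size of the fall depended on rat 87. The log2 fold change was -3.98 ± 0.76 SE, with a 95% interval from -5.67 to -2.30 (edgeR adjusted p = 0.00579), and it was -5.574 without rat 87. In set 2 alone the edgeR adjusted p was 0.142, and the test beyond 1.5-fold gave 0.0853. All 12 libraries had fractional counts for this ID.

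**Figure D5:**
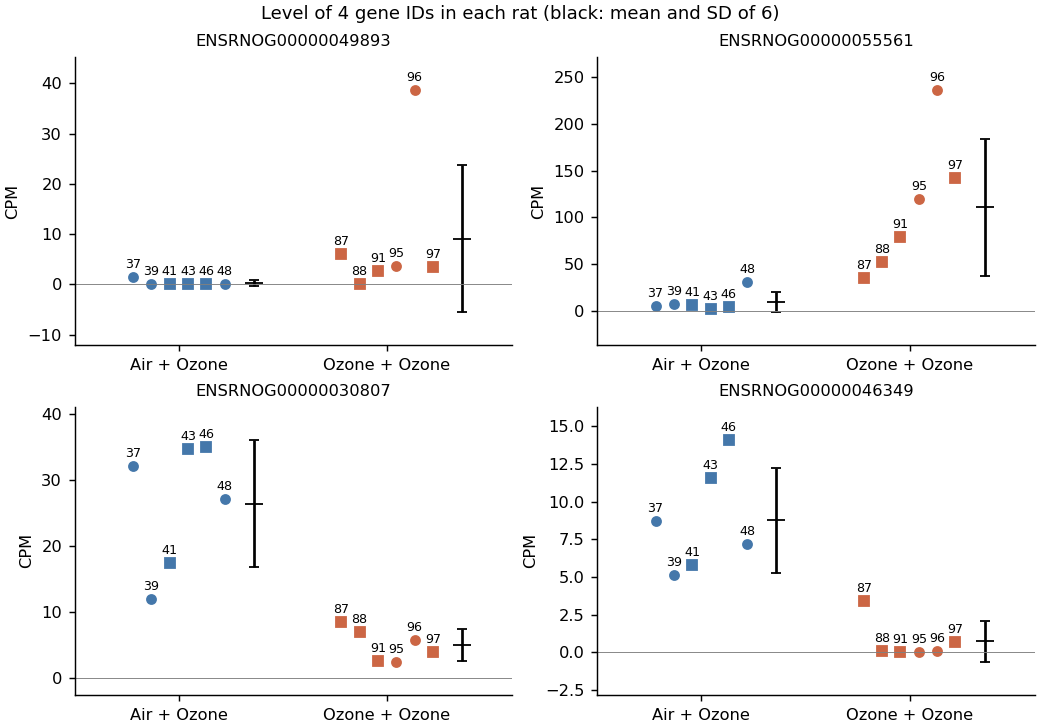
Level in CPM of 4 gene IDs in each of the 12 rats, labelled by rat number, with circles for set 1 and squares for set 2; black bars give the mean and SD of 6 rats and can reach below 0. The groups do not overlap for ENSRNOG00000055561, ENSRNOG00000030807 and ENSRNOG00000046349, and they overlap for ENSRNOG00000049893, where rat 88 is at 0.

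The maternal difference was then set against that in the other 12 rats of the study, which carry the other sex label, had the same exposures and are separate animals. The 2 differences themselves, estimated in a joint fit of 24 libraries, differed in 2994 of 12854 genes (23.3%; edgeR interaction test, adjusted p under 0.05). Of the 2669 genes called in rats 37 to 97 that entered this test, 1992 (74.6%) passed it, against 10% of the genes not called. The same 12 livers enter both tests, so the 74.6% is not independent of the calls. Genes higher with maternal ozone here had a median log2 fold change of 0.55 in these rats and -0.18 in the other rats. Lower genes had medians of -0.61 and 0.25. The sign was opposite in the other rats for 81.8% of risen genes and 89.5% of fallen genes, and for 64.5% of the genes that were not called. Few of these genes were called in the other rats alone. They were 3 of the 1291 risen genes tested there, 6 of the 1353 fallen genes and 24 of the 9606 genes not called here. An opposite change in the other rats was thus not shown gene by gene.

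The genes with the largest changes were compared in the same way. Of the 12 largest falls, 11 passed the interaction test, and all 12 had the opposite sign in the other rats. Among all called falls, 74.4% passed it and 89.5% of those tested there had the opposite sign. Of the 12 largest rises, 5 passed it, and 1 had the opposite sign, against 74.9% and 81.8% among all called rises. The genes were chosen by their change in livers that also enter the interaction test. Passing it is therefore partly built in, and these counts are a description. In the other rats alone, 0 of the 12 falls and 0 of the 12 rises were called. The joint fit estimates the difference anew, so it need not equal the gap between the fold changes of the separate fits given beside it. ENSRNOG00000046349 had a log2 fold change of -3.98 here and 4.05 ± 0.90 SE in the other rats (edgeR adjusted p = 0.092 there), and the joint fit gave a difference of -7.52 (edgeR interaction adjusted p = 0.000713). For ENSRNOG00000030807 the values were -2.49 here and 1.43 ± 0.43 SE there (edgeR adjusted p = 0.155 there), with a joint-fit difference of -3.80 (edgeR interaction adjusted p = 0.000443). ENSRNOG00000055561 was at 3.96 here and 0.28 ± 0.93 SE there (edgeR adjusted p = 0.909 there), with a joint-fit difference of 3.45 (edgeR interaction adjusted p = 0.0407). ENSRNOG00000049893 was at 5.49 here and -0.30 ± 0.66 SE there (edgeR adjusted p = 0.858 there), and differed by 5.26 in the joint fit (edgeR interaction adjusted p = 0.015).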

How the data were processed

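PolyA-selected RNA of 12 livers (RIN above 7) was sequenced, per the labels' protocols. Tools named in the submitters' processing notes are Partek, STAR 2.6.1d, DESeq2 and the build rn6, with no role or order, and with annotation and strand setting not given in the sources used here. Values in the deposited tables are estimated counts per Ensembl ID, not scaled to library size or gene length, per the values. Between 79.2% and 81.3% of a library's values were whole within 1e-09. A further 23 library columns carry names of no sample here and were left out.

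Counts were rounded, which changed totals by at most 0.00033%. They were tested in R 4.3.3 with edgeR 4.0.16 (robust quasi-likelihood, TMM, filterByExpr with a minimum count of 10 and minimum total of 15), with library set as a term. CPM used TMM, and log2 CPM a prior count of 2. The interaction was fitted on 24 libraries, and the threshold test is edgeR's glmTreat at 1.5-fold. Pairs of replicates differed by a chi-square of 16 to 73.6 per gene, so none was a repeated library. The SE of a log2 fold change is its absolute value divided by the square root of the quasi-likelihood F. The 95% intervals are built from this SE with a t quantile, and both are rough for IDs with counts near 0. Intervals and floors cover counting error or the spread between rats only.

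Alternatives were DESeq2 1.42.0, limma-voom (limma 3.58.1), other scalings and filters, each library set, and each rat left out. The threshold test was chosen after seeing the data. So were, without rat 88, the fit of set 2, the threshold test, the principal components and the counts of genes whose groups did not overlap. The members and gene lists were chosen with earlier results of these data known. Named genes were to need a symbol. As 0 IDs matched one, the rule's 12 largest rises and falls are summarised, and the 2 largest of each are given by ID. The 42 gene lists and 16 cell type marker lists could not be used. The fits were also run on simulated counts with known changes, drawn independently for each gene and rat. The simulation held no library set effect, outlying rat or litter, so it cannot show how the fits behave with those.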

Additional observations from a re-analysis of the deposited data

Results flagged for a closer look

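Of 30 values examined for a rat far from the other 5 of its group, 7 stood out by Dixon's criterion (the gap to the next rat as a share of the group's range). Chance gives about 1 in 20 only for independent, normally distributed values. The values here include CPM of IDs chosen for their size of change, and values that depend on one another. No excess over chance can therefore be read from the 7. Rat 88 had a score of 31.5 on principal component 2, against 2.78 for the next rat of its group, and 3740 genes were called without it, against 2370 for the next. Rat 37 lay at -22.6 on principal component 3, with the next rat of its group at -2.34. ENSRNOG00000049893 was at 1.43 CPM in rat 37 (next 0.0868) and at 38.6 CPM in rat 96 (next 6.05). ENSRNOG00000055561 was at 30.7 CPM in rat 48 (next 7.64). ENSRNOG00000046349 was at 3.42 CPM in rat 87 (next 0.702).

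The maternal difference in rats 37 to 97 differed from that in the other 12 rats in 2994 genes by edgeR's interaction test. Among the IDs given, the interaction estimate of that joint fit of 24 libraries, on the log2 scale, was 5.26 for ENSRNOG00000049893, 3.45 for ENSRNOG00000055561, -3.80 for ENSRNOG00000030807 and -7.52 for ENSRNOG00000046349.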

How the results depend on the processing

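Leaving out each rat in turn gave 1684 to 3740 called genes, 752 to 1829 higher and 884 to 1911 lower. The same leave-outs over 24 libraries gave 2371 to 3793 genes for the difference from the other rats. Library set 1 alone called 861 genes (417 higher, 444 lower). Set 2 alone called 121 (73 and 48), and 1032 (437 and 595) without rat 88. These fits hold fewer rats, and rat 88 was left out because it lay near the other group. The threshold test of 1.5-fold, which asks for more than any difference, was passed by 41 genes (19 and 22), and by 149 (45 and 104) without rat 88. The other 9 settings (DESeq2, limma-voom, RLE, library totals, no library set term, no filter, a floor of 50 on the mean count, counts not rounded, identical IDs kept once) called 2139 to 3059 genes, 1074 to 1532 higher and 1065 to 1527 lower. For the interaction, 4 settings gave 2871 to 3283 genes. No paired analysis was possible because each rat number occurs once and the groups share no replicate number in the labels. The depth limits IDs below 0.206 to 0.355 CPM. Litter, and the order of rat and index numbers, cannot be told apart from the dam's exposure.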
